A study of Mus musculus with 10 samples.

Results

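The interferon-stimulated genes described here are a list of 53 genes, of 17864 in the count table, that respond to interferon or encode its receptors. They were found by dropping the version from the Ensembl identifiers and matching the mouse symbols, and all 53 were in the table. The list holds 35 genes assigned to the type I response, 14 assigned to the type II response and 4 receptor chains. All 53 passed the filter on low counts, and the lowest count of any member in any tumor was 91.

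Both groups of tumors grew from 4T1, a mouse mammary carcinoma line used as a model of triple-negative breast cancer. The cells carried Cas9 and either a control guide RNA (sgCon, 5 tumors) or a guide RNA against Taz (sgTaz, 5 tumors), the gene of the transcriptional coactivator TAZ, whose official symbol is Wwtr1. By the study's methods, 100000 cells were injected into mammary fat pad 4 of female mice aged 6 to 8 weeks, either BALB/c, which have an intact immune system, or SCID, which lack T and B cells, and the sources used here do not say which of these hosts gave the sequenced tumors. RNA came from whole tumors, so that tumor cells with the guide RNA and host cells with normal TAZ were read together. In such bulk samples, fewer cells of a type and less RNA per cell cannot be told apart.

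Interferons are secreted signals against infection that also act in tumors. Type I interferons bind the receptor of IFNAR1 and IFNAR2, and a complex that holds STAT2 and IRF9 then binds the interferon-stimulated response element (ISRE) of antiviral genes. Interferon gamma, the type II interferon, is made mainly by T cells and NK cells and binds the receptor of IFNGR1 and IFNGR2, and its signal reaches the gamma-activated site (GAS) of genes such as those of the large GTPases that attack intracellular microbes. The 2 responses share many targets, so the assignment of a gene to a type is a convention.

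Total counts ranged from 14753922 to 19595821 in sgCon tumors and from 12185383 to 18395558 in sgTaz tumors. Wwtr1 was at 114 to 192 CPM (counts scaled to the size of the library, after TMM normalization) in sgCon tumors and at 86.6 to 139 CPM in sgTaz tumors. Its log2 fold change, sgTaz over sgCon, was -0.59 ± 0.15 (standard error), with an edgeR adjusted p of 0.096 and a DESeq2 adjusted p of 0.0151, and the groups overlapped. Markers of lymph node stroma and high endothelium summed to 43.5 to 882 CPM in sgCon tumors. They summed to 408 CPM in sgTaz tumor 5 and to between 1.55 and 7.61 CPM in the other 4 sgTaz tumors. The epithelial markers that define the tumor cells were detected in every tumor.

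The type II members stood higher in sgTaz tumors, whereas the type I members stood on both sides of no change. All 14 type II members had a positive log2 fold change, from 0.10 to 0.62 with a median of 0.36, while the median over the 14816 genes tested was -0.02. Of the 35 type I members 16 were positive and 19 negative, with a median of -0.09 and a range from -0.83 to 0.32. The 4 receptor chains had a median of 0.05. With edgeR's quasi-likelihood test and a Benjamini-Hochberg adjusted p below 0.05, 0 members were called higher and 0 lower, beside 0.00675% and 0% of all genes tested. At an unadjusted p below 0.05, 10 members were higher and 6 lower, beside backgrounds of 9.86% and 11.9%. The count of lower members was no larger than this background gives. The 10 higher members were all large GTPases of the type II list, and the 6 lower members were Ifitm1, Mx2, Ifit3, Oas2, Irf7 and Irf9 of the type I list. DESeq2, the test named in the study's methods, called 8 members higher, all type II, and 1 lower, Ifitm1, beside 3.28% and 3.47% of its genes. limma-voom with sample quality weights called 6 higher, all type II, and 4 lower, all type I, beside 4.63% and 5.8%, and at its unadjusted p below 0.05 it had 11 members higher and 14 lower, beside 14% and 16.8%. In 5 members every sgTaz tumor was above every sgCon tumor, beside 2.44% of all genes. No member had every sgTaz tumor below every sgCon tumor, beside 2.13%.

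**Figure D1:**
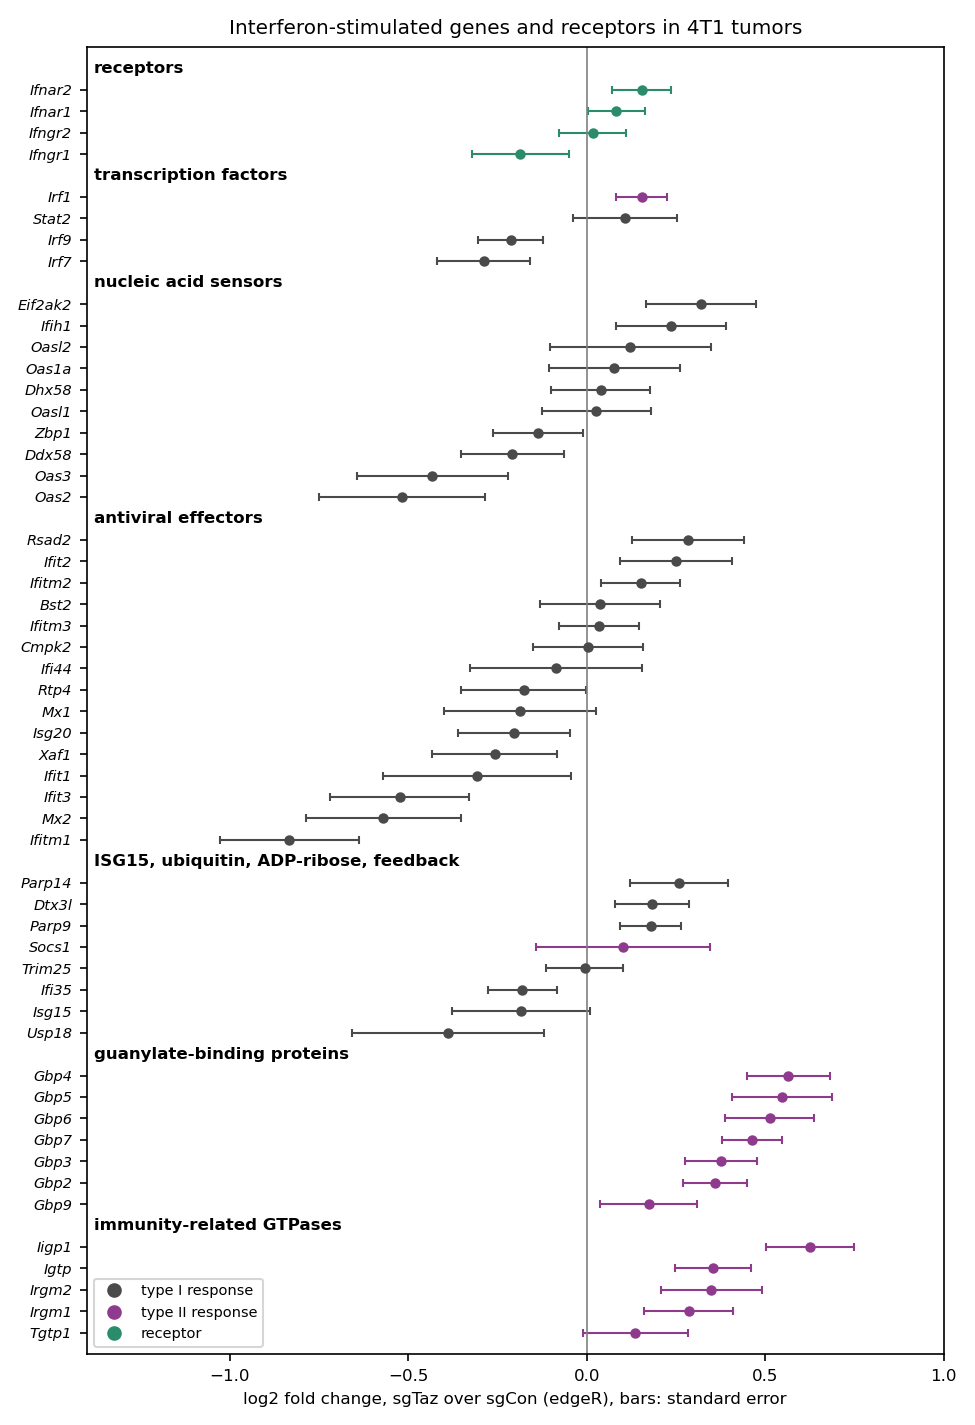
Log2 fold change of each of the 53 genes, sgTaz over sgCon tumors (5 against 5), from edgeR, with bars for 1 standard error, grouped by role and colored by response type. The guanylate-binding proteins and immunity-related GTPases all lie to the right of 0, whereas antiviral effectors and sensors spread from -0.83 to 0.32.

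The guanylate-binding proteins (GBPs) are interferon-induced large GTPases that coat and break open the vacuoles of intracellular microbes and feed inflammasomes. All 7 members had positive values, with a median log2 fold change of 0.46, and 6 of the 7 had an unadjusted p below 0.05. In the reference, Gbp2, Gbp3, Gbp5 and Gbp7 lie together on chromosome 3, and Gbp4, Gbp6 and Gbp9 lie together on chromosome 5. Of the 53 members 40 were matched by symbol to the RefSeq promoter table (build GRCm38.p6), of which the 250 bases before the start site were searched on both strands for the ISRE core GAAANNGAAA (TTTCNNTTTC on the other strand) and for the palindromic GAS TTCNNNGAA. The ISRE core was present upstream of 3.46% of the 27025 genes of the table, and GAS upstream of 8.13%. Of the type II members with an entry, 9 of 10 held an ISRE core and 6 of 10 a GAS. Of the type I members with an entry, 9 of 26 held an ISRE core and 5 of 26 a GAS. Among the GTPases the ISRE core was found in 8 of 8 with an entry and GAS in 5 of 8, whereas 0 of 4 receptor genes held an ISRE core and 1 of 4 a GAS. Among the members, the 2 motifs overlapped each other only upstream of Bst2. No entry was matched for Gbp4, Gbp6, Gbp9 and Iigp1.

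Stretches upstream of 2 GTPase genes and of 2 type I genes are printed 5′ to 3′ on the strand of the gene, because they show the arrangement of these letters in both classes. Capitals mark every match to a motif. In Gbp7 (chr3:142530216-142530305, plus strand), 2 GAS matches at positions -106 to -98 and -87 to -79 from the start site precede an ISRE core at -53 to -44. In Igtp (chr11:58199496-58199545, plus strand), a GAS at -45 to -37 is followed 2 bases later by an ISRE core at -34 to -25, the same spacing as in Irgm2 and Tgtp1. In Isg15 (chr4:156200859-156200908, minus strand), 3 ISRE cores overlap one another between -78 and -57. In Ifit1 (chr19:34640769-34640828, plus strand), ISRE cores lie at -104 to -95 and at -85 to -76. These letters are matches to a pattern, and no binding was measured.
Gbp7: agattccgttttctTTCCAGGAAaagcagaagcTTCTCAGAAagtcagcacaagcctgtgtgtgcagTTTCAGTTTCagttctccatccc
Igtp: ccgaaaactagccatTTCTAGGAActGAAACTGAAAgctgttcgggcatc
Isg15: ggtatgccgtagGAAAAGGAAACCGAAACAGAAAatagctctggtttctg
Ifit1: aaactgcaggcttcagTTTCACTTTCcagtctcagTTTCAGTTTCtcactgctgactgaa

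Gbp7, whose upstream stretch is the first printed, was at 250.5, 256, 220.4, 194 and 208 CPM in sgCon tumors 1 to 5 and at 326, 318, 309.5, 301 and 302 CPM in sgTaz tumors 1 to 5. The groups did not overlap, and the sgTaz tumors lay within a narrow range. The log2 fold change was 0.46 ± 0.08 (standard error), with an edgeR adjusted p of 0.0824 and a DESeq2 adjusted p of 0.000146. Without sgTaz tumor 5, Gbp7 was called higher by edgeR, with an adjusted p of 0.0459.

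Gbp4 was at 363, 397, 439, 321 and 320.2 CPM in the sgCon tumors and at 518, 674, 482, 507 and 541 CPM in the sgTaz tumors. Here too the groups did not overlap, and sgTaz tumor 2 was the highest. Its log2 fold change of 0.56 ± 0.12 was the largest of the GBPs, with an edgeR adjusted p of 0.0824 and a DESeq2 adjusted p of 0.00111. Gbp2, the GBP with the highest level per length (141 CPM per kilobase of exon), was at 307, 350.0, 328, 293 and 277 CPM in the sgCon tumors and at 412, 463, 370.5, 365 and 386 CPM in the sgTaz tumors. All 5 sgTaz values exceeded all sgCon values, with a log2 fold change of 0.36 ± 0.09 and adjusted p of 0.096 by edgeR and 0.0096 by DESeq2.

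Gbp6 was the lowest member per length, at 2.75 CPM per kilobase, with 15.97, 13.2, 14.3, 10.7 and 13.3 CPM in the sgCon tumors and 17.8, 22.9, 17.7, 18.8 and 19.3 CPM in the sgTaz tumors. The groups were separate, but 29% of its exon bases are shared with the annotated gene Gm43302 on the same strand, and it is closely related to Gbp10, so its reads could be split or lost. Its log2 fold change was 0.51 ± 0.12, with an edgeR adjusted p of 0.096 and a DESeq2 adjusted p of 0.0062.

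Gbp5, which promotes assembly of the NLRP3 inflammasome, was at 56.0, 75.6, 87.5, 54.7 and 57.7 CPM in the sgCon tumors and at 103, 89.5, 86.2, 92.6 and 112 CPM in the sgTaz tumors. A single pair overlapped, sgCon tumor 3 being above sgTaz tumor 3. The log2 fold change was 0.55 ± 0.14, with an edgeR adjusted p of 0.096 and a DESeq2 adjusted p of 0.0116. Gbp3 had 169, 179, 181, 165 and 138 CPM in the sgCon tumors and 247, 238, 209, 181 and 205 CPM in the sgTaz tumors. In this gene the highest sgCon tumor and the lowest sgTaz tumor were level, and the log2 fold change was 0.38 ± 0.10, with adjusted p of 0.0999 by edgeR and 0.021 by DESeq2. Gbp9 was the exception among the GBPs, with 127 to 224 CPM in sgCon tumors, 184 to 249 CPM in sgTaz tumors and a log2 fold change of 0.17 ± 0.14.

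**Figure D2:**
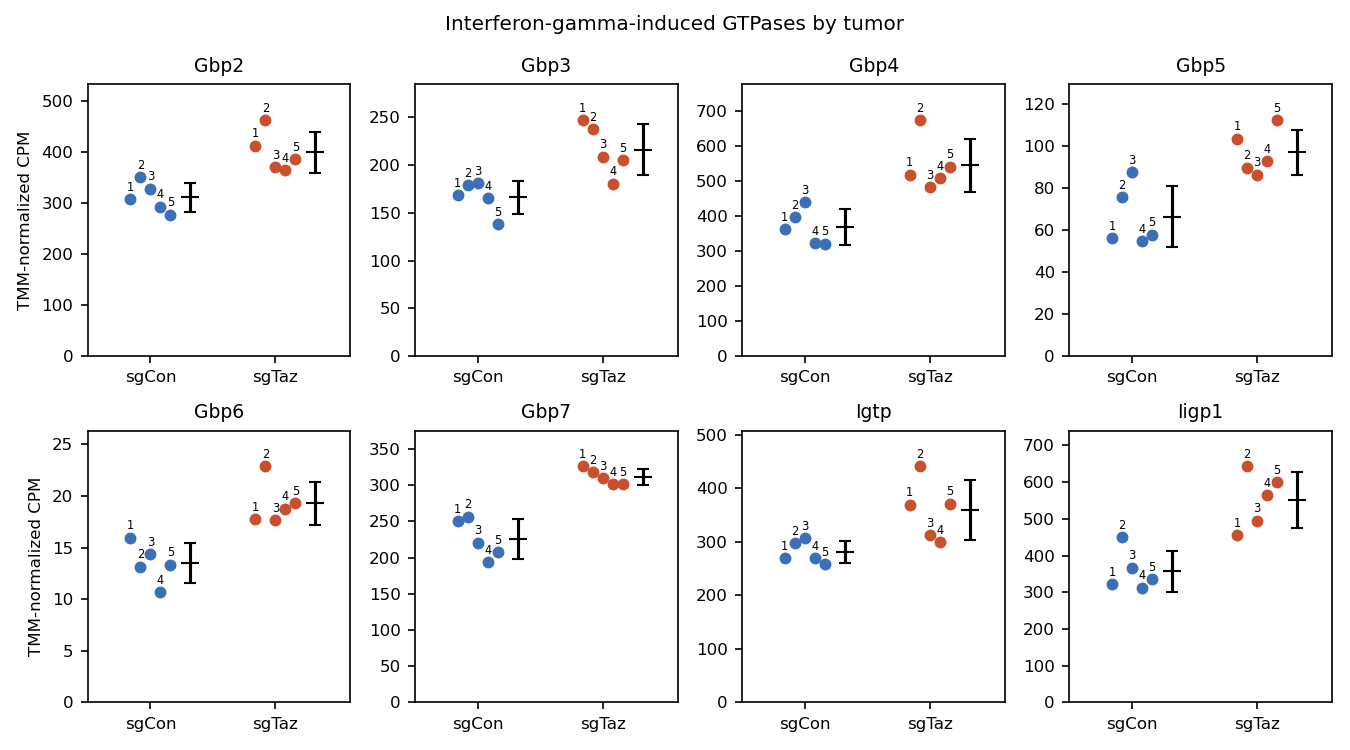
TMM-normalized CPM of the 8 GTPase genes that DESeq2 called higher, in each of 5 sgCon and 5 sgTaz tumors, with tumor numbers beside the points and bars for the mean and 1 standard deviation. Gbp2, Gbp4, Gbp6, Gbp7 and Iigp1 do not overlap between groups, and sgTaz tumor 2 is the highest in Gbp2, Gbp4, Gbp6, Igtp and Iigp1.

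The immunity-related GTPases (IRGs) act on the membranes of vacuoles that hold parasites or bacteria, and the Irgm members restrain the others on host membranes. All 5 members had positive values, with a median log2 fold change of 0.35. Iigp1, an effector that disrupts parasite vacuoles, was at 322, 451, 368, 313 and 335 CPM in the sgCon tumors and at 455, 643, 495, 564 and 600.1 CPM in the sgTaz tumors. No sgTaz tumor was as low as any sgCon tumor, although sgCon tumor 2 and sgTaz tumor 1 were close. This was the largest positive change among the 53 members, a log2 fold change of 0.62 ± 0.12 or 1.54-fold, with an edgeR adjusted p of 0.0824 and a DESeq2 adjusted p of 0.000537.

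Igtp, also called Irgm3, had the highest level per length of the IRGs at 158 CPM per kilobase. It was at 269.9, 298, 307, 269.9 and 258 CPM in the sgCon tumors and at 369.5, 441, 313, 299.5 and 371 CPM in the sgTaz tumors. The groups overlapped through sgTaz tumor 4 alone, and the log2 fold change was 0.35 ± 0.11, with adjusted p of 0.114 by edgeR and 0.0327 by DESeq2. Igtp shares 162 exon bases with Irgm2 on the same strand. The other members, Irgm2 (0.35 ± 0.14), Irgm1 (0.29 ± 0.12) and Tgtp1 (0.14 ± 0.15), overlapped between groups and were not called by any of the 3 tools, and Tgtp1 has a near-identical neighbour, Tgtp2, with which reads may be shared.

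Upstream of these genes, the ligands and receptors were examined. Of 10 listed interferon ligands 1, Ifng, was found by symbol in the count table, so the level of the others could not be read. Ifng was at 2.04, 2.95, 3.06, 2.28 and 1.51 CPM in the sgCon tumors and at 5.09, 5.17, 3.16, 2.75 and 4.15 CPM in the sgTaz tumors. Of the sgTaz tumors 4 were above all sgCon tumors and tumor 4 was not. The lowest Ifng count in any tumor was 22. The log2 fold change of 0.78 ± 0.26 had an unadjusted p of 0.0111, but the adjusted p was 0.134 by edgeR and 0.0605 by DESeq2. Over the same tumors the 8 T cell markers all had negative values and summed to 105 to 792 CPM in sgCon tumors and to 66.6 to 201 CPM in sgTaz tumors. All 8 had an unadjusted p below 0.05 in edgeR, and DESeq2 called 4 of them lower. The 7 NK cell markers found in the table summed to 26.7 to 69.4 CPM and to 35.6 to 53.6 CPM, but 4 of the 6 that were tested had positive values, with a median of 0.38, 2 of them higher at an unadjusted p below 0.05 in edgeR and 1 called higher by DESeq2. Their part in the Ifng level was not tested.

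None of the 4 receptor chains had an unadjusted p below 0.05 in edgeR. Ifngr1, the ligand-binding chain for interferon gamma, had both the largest change and the highest level per length of the 4. It was at 89.0, 97.4, 112, 92.1 and 89.8 CPM in the sgCon tumors and at 71.7, 61.3, 89.6, 98.2 and 102 CPM in the sgTaz tumors. Tumors 1 and 2 of the sgTaz group were the lowest, the groups overlapped, and the log2 fold change was -0.19 ± 0.14. Ifngr2 (0.02 ± 0.09), Ifnar1 (0.08 ± 0.08) and Ifnar2 (0.15 ± 0.08) lay between 63.5 and 126 CPM in every tumor.

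Among the 4 transcription factors of the members, Stat2 and Irf9 act together in the type I response. Stat2 was at 0.11 ± 0.15 in log2 fold change and Irf9 at -0.21 ± 0.09, and both overlapped between groups.

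Irf1, an early target that carries the interferon gamma response onward, had the highest level per length of the member factors at 92.6 CPM per kilobase. It was at 349, 336, 389.7, 326 and 344 CPM in the sgCon tumors and at 416, 409, 378, 367 and 369.9 CPM in the sgTaz tumors. The groups overlapped through sgCon tumor 3, and the log2 fold change was 0.15 ± 0.07 with an edgeR adjusted p of 0.233. Irf7, the amplifier of type I interferon production, was at 144, 112, 118, 108 and 136 CPM in the sgCon tumors and at 92.7, 132, 99.5, 79.2 and 104 CPM in the sgTaz tumors. Here 4 sgTaz tumors were below all sgCon tumors, tumor 2 was not, and the log2 fold change was -0.29 ± 0.13 with an edgeR adjusted p of 0.226. Without sgTaz tumor 2, 14 of all members in place of 6 were lower at an unadjusted p below 0.05, and without sgCon tumor 1 the count was 1. Shares of all genes under these fits are not given, so the counts are not read as results about members.

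The 10 sensors of foreign nucleic acid ran from -0.52 to 0.32 in log2 fold change, with a median of 0.03, 6 positive and 4 negative. Oas2, which makes the 2-5A that activates RNase L, had the largest change. It was at 65.2, 48.0, 31.7, 40.2 and 69.2 CPM in the sgCon tumors and at 28.1, 50.2, 38.6, 26.1 and 34.6 CPM in the sgTaz tumors. The groups overlapped, and the log2 fold change of -0.52 ± 0.23 had an edgeR adjusted p of 0.226. Oas3, an enzyme of the same family, was at 62.8, 47.8, 40.2, 37.4 and 59.0 CPM in the sgCon tumors and at 32.1, 56.1, 32.6, 25.6 and 36.5 CPM in the sgTaz tumors. The 4 sgTaz tumors other than tumor 2 were below every sgCon tumor, and the log2 fold change was -0.43 ± 0.21, with adjusted p of 0.258 by edgeR, 0.238 by DESeq2 and 0.0382 by limma-voom.

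Zbp1, a sensor of Z-form nucleic acid that can start necroptosis, had the highest level per length of the sensors at 38.8 CPM per kilobase. It was at 162, 143, 148, 119 and 145 CPM in the sgCon tumors and at 128, 175, 118, 110.3 and 120.3 CPM in the sgTaz tumors, with sgTaz tumor 2 the highest of all 10 tumors. Its log2 fold change was -0.14 ± 0.13. At the other end of the role, Eif2ak2 (PKR, which stops translation on double-stranded RNA) was at 0.32 ± 0.15 and Ifih1 (MDA5) at 0.24 ± 0.15, with all 5 sgTaz tumors above the sgCon mean in both, whereas Ddx58 (RIG-I) was at -0.21 ± 0.14. None of these was called by any of the 3 tools.

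The 15 antiviral effectors had a median log2 fold change of -0.18, with 6 positive and 9 negative. Ifitm1, a membrane protein that blocks virus fusion, had the largest absolute change of all 53 members. It was at 58.0, 74.2, 50.1, 35.9 and 62.9 CPM in the sgCon tumors and at 28.6, 43.5, 25.4, 29.2 and 31.1 CPM in the sgTaz tumors. All sgTaz tumors except tumor 2 were below all sgCon tumors. The log2 fold change was -0.83 ± 0.19, or 0.56-fold, with adjusted p of 0.096 by edgeR, 0.00499 by DESeq2 and 0.0178 by limma-voom. Its neighbours on chromosome 7 did not follow it: Ifitm2 was at 0.15 ± 0.11, with 40.9% of its exon bases shared with the annotated gene Gm45717, and Ifitm3 was at 0.03 ± 0.11. Ifitm3, which blocks entry of influenza and other viruses from endosomes, had the highest level per length of all members, 748 CPM per kilobase. It was at 581, 462, 452, 542 and 468 CPM in the sgCon tumors and at 561, 623, 481, 444 and 456 CPM in the sgTaz tumors, with both groups spread over the same range.

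Ifit3, a member of the cluster of IFIT genes that restrain foreign RNA, was at 47.9, 36.9, 26.6, 28.8 and 38.5 CPM in the sgCon tumors and at 20.7, 35.6, 24.3, 19.5 and 24.1 CPM in the sgTaz tumors. Again 4 sgTaz tumors were below every sgCon tumor and tumor 2 was not. The log2 fold change was -0.52 ± 0.19, with adjusted p of 0.162 by edgeR, 0.103 by DESeq2 and 0.028 by limma-voom, and reads may be shared with its near copy Ifit3b. In the same cluster on chromosome 19, Ifit1 was at -0.31 ± 0.26 and Ifit2 at 0.25 ± 0.16. Mx2, a dynamin-like GTPase, was at 20.1, 11.1, 10.9, 11.0 and 14.04 CPM in the sgCon tumors and at 7.70, 13.0, 8.36, 7.36 and 8.80 CPM in the sgTaz tumors. The same 4 sgTaz tumors were the lowest, and the log2 fold change was -0.57 ± 0.22, with adjusted p of 0.169 by edgeR and 0.0447 by limma-voom. The remaining effectors, Isg20, Ifi44, Mx1, Rsad2, Cmpk2, Bst2, Rtp4 and Xaf1 with Ifit1, Ifit2, Ifitm2 and Ifitm3, lay between -0.31 and 0.28 and were called by no tool. Bst2, the tether that holds budding viruses at the cell surface, was second to Ifitm3 at 445 CPM per kilobase.

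The 8 members around ISG15, ubiquitin, ADP-ribose and feedback had 4 positive and 4 negative values and no unadjusted p below 0.05. Isg15, a ubiquitin-like protein joined to other proteins during infection, was the highest of them per length at 94.1 CPM per kilobase. It was at 101, 76.4, 53.3, 73.5 and 74.0 CPM in the sgCon tumors and at 62.6, 97.8, 60.5, 48.3 and 63.7 CPM in the sgTaz tumors, with a log2 fold change of -0.18 ± 0.19. Usp18, the protease that removes ISG15 and damps the type I receptor, was at 74.7, 50.5, 37.4, 42.8 and 49.7 CPM in the sgCon tumors and at 28.3, 69.5, 31.1, 27.6 and 38.5 CPM in the sgTaz tumors. In both genes sgCon tumor 1 and sgTaz tumor 2 were the highest of their groups. Usp18 had a log2 fold change of -0.39 ± 0.27 and an edgeR adjusted p of 0.416. The ADP-ribosylation partners Parp9 (0.18 ± 0.09), Dtx3l (0.18 ± 0.10) and Parp14 (0.26 ± 0.14) were positive, and Parp9 and Dtx3l share 458 exon bases on opposite strands. Trim25 was at -0.01 ± 0.11 and Ifi35 at -0.18 ± 0.10. Socs1, the feedback inhibitor induced by interferon gamma, was at 0.10 ± 0.24 and ranged from 30.8 to 72.0 CPM in sgCon tumors and from 32.5 to 71.2 CPM in sgTaz tumors.

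**Figure D3:**
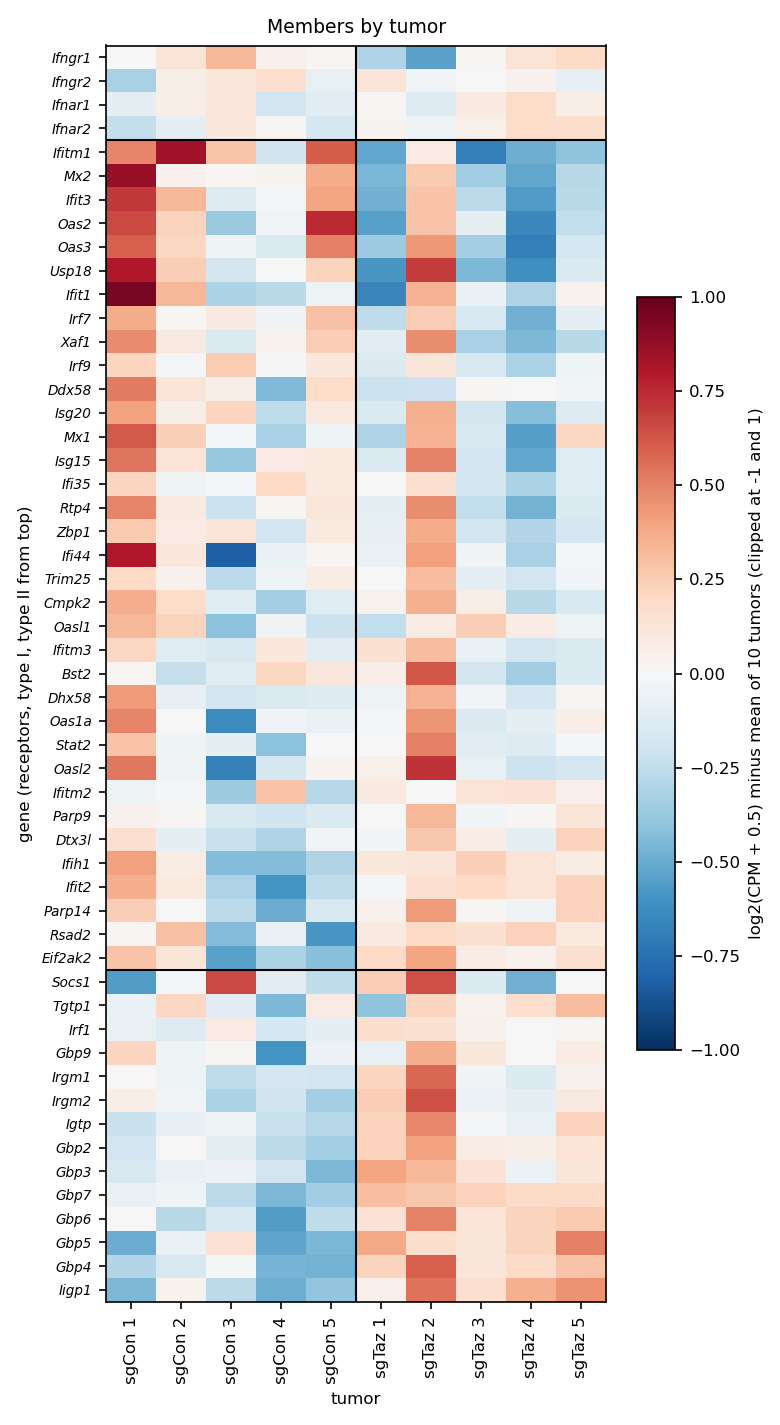
Log2(CPM + 0.5) of each member in each of the 10 tumors, minus the mean of that gene over the 10 tumors, with receptors at the top, then type I and type II members, each ordered by log2 fold change; red is above and blue below the mean. sgCon tumor 1 and sgTaz tumor 2 are red across most type I genes, while the type II GTPases at the bottom are mostly blue in the sgCon tumors and red in the sgTaz tumors.

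Within each group most type I members shared their highest tumor. In sgCon tumors 29 of the 35 were highest in tumor 1, and in sgTaz tumors 29 of the 35 were highest in tumor 2. The mean log2 CPM over the 35 genes was 6.47 in sgCon tumor 1 and 5.86 to 6.16 in the other sgCon tumors, and it was 6.38 in sgTaz tumor 2 and 5.80 to 6.01 in the others. The group means were 6.10 ± 0.24 (SD, n = 5) in sgCon and 6.01 ± 0.22 (SD, n = 5) in sgTaz tumors, so the difference between groups was smaller than the spread within them. For the 14 type II members the mean was 7.29, 7.41, 7.41, 7.11 and 7.18 in the sgCon tumors and 7.63, 7.88, 7.53, 7.50 and 7.65 in the sgTaz tumors. These values did not overlap, with 7.28 ± 0.13 (SD, n = 5) against 7.64 ± 0.15 (SD, n = 5).

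Set side by side within a tumor, the type II mean exceeded the type I mean by 0.82, 1.25, 1.55, 1.18 and 1.08 log2 units in the sgCon tumors and by 1.71, 1.501, 1.57, 1.70 and 1.65 in the sgTaz tumors. The SD of this difference was 0.265 in the sgCon tumors and 0.088 in the sgTaz tumors. The groups overlapped through sgCon tumor 3, the tumor with the most lymph node stroma RNA. This mean is over genes of unequal length and is read between tumors only, and it was given no test because the members were chosen with results of these tumors known.

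**Figure D4:**
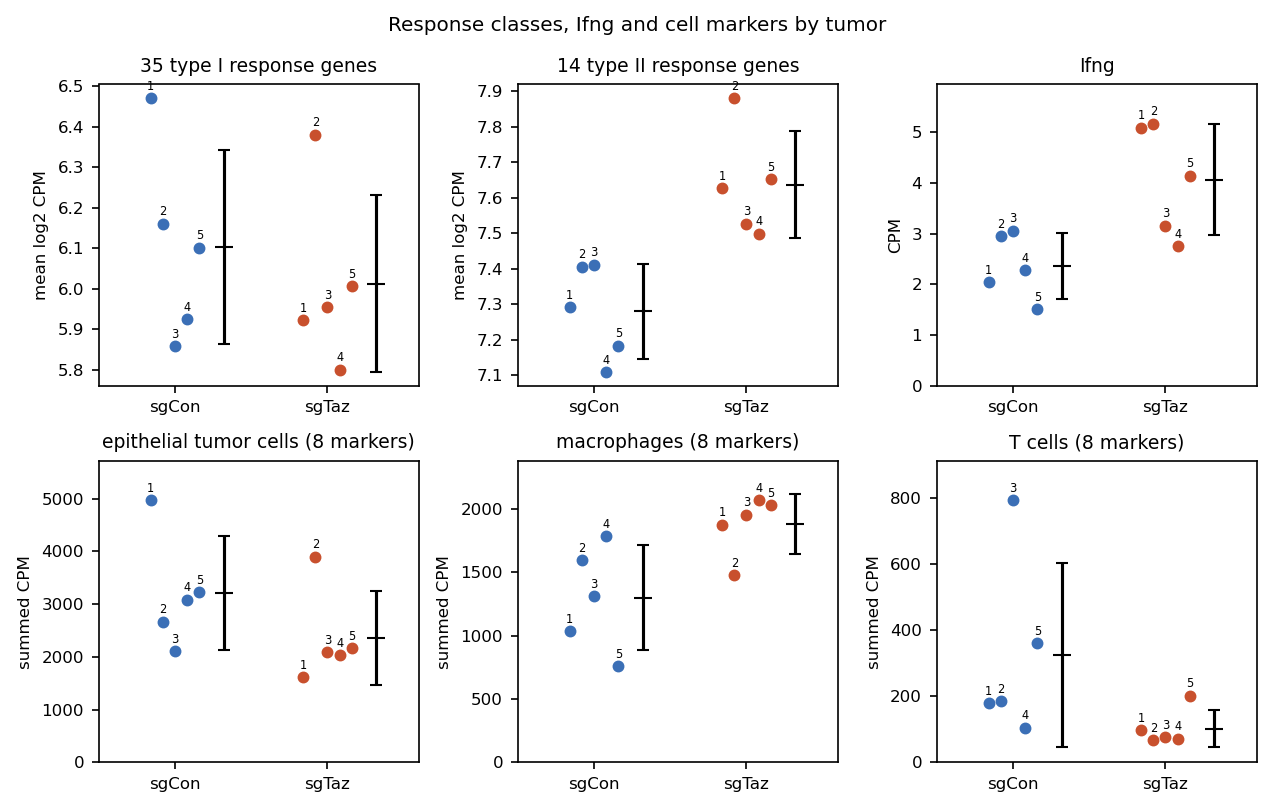
Upper panels show the mean log2 CPM of the 35 type I and the 14 type II members and the CPM of Ifng, lower panels the summed CPM of 8 epithelial, 8 macrophage and 8 T cell markers, in each tumor with its number; bars are the mean and 1 standard deviation of 5 tumors, and the 2 log2 axes do not start at 0. Type II means are 7.11 to 7.41 in sgCon and 7.50 to 7.88 in sgTaz tumors, and sgCon tumor 1 and sgTaz tumor 2 are the highest of their groups in both type I members and epithelial markers.

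The 8 epithelial markers summed to 4967 CPM in sgCon tumor 1 and 2110 to 3224 CPM in the other sgCon tumors, and to 3897 CPM in sgTaz tumor 2 and 1621 to 2164 CPM in the others, so the highest tumor of each group was the one highest in type I members. All 8 epithelial markers had negative values, 4 of them with an unadjusted p below 0.05 in edgeR and 1 called lower by DESeq2. All 8 macrophage markers had positive values, and their sum was 759 to 1787 CPM in sgCon tumors and 1478 to 2068 CPM in sgTaz tumors. Of these macrophage markers 5 had an unadjusted p below 0.05 in edgeR, and DESeq2 called 3 higher. In sgCon tumors, tumor 4 had the highest macrophage sum and the lowest type II mean. The lowest sum (759 CPM) was in sgCon tumor 5, with a type II mean of 7.18, and sgCon tumor 2 had 1597 CPM with 7.41. In sgTaz tumors, tumor 2 had the lowest macrophage sum and the highest type II mean. The part of macrophage content in the type II values was not tested. Marker scores as covariates, given next, adjust the group change and do not measure that part. With the epithelial score as a covariate, an alternative chosen after seeing the data, the median log2 fold change was 0.39 for type II and 0.13 for type I members. With the macrophage score as a covariate it was 0.41 and 0.08, and with the lymph node stroma score it was 0.34 and -0.19. The type II median stayed positive in each of these fits, and the sign of the type I median did not hold. Each of these fits called 0 members at an adjusted p below 0.05. The edgeR adjusted p of Gbp7, 0.0824 in the main fit, was 0.632 with the macrophage score and 0.395 with the stroma score. For Iigp1, also 0.0824 in the main fit, it was 0.654 and 0.395. Outside the members, the log2 fold change of Cxcl9 went from 0.60 to 0.13 with the macrophage score and to 0.74 with the stroma score.

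Among 61 pathway genes outside the members that were tested, edgeR called 0 at an adjusted p below 0.05, and 13 were higher and 7 lower at an unadjusted p below 0.05, beside 9.86% and 11.9% of all genes tested. DESeq2 called 7 higher and 1 lower, beside 3.28% and 3.47%, and limma-voom 7 higher and 3 lower, beside 4.63% and 5.8%. The counts of lower pathway genes were no larger than these backgrounds give. Of the 7 that DESeq2 called higher, Gbp2b, Gbp10 and Gbp11 are further GBPs, at 0.46 ± 0.10, 0.96 ± 0.20 and 0.68 ± 0.22. Gbp10 was at 19.5, 21.9, 19.6, 9.71 and 17.1 CPM in the sgCon tumors and at 27.9, 41.9, 29.9, 32.2 and 39.5 CPM in the sgTaz tumors. It did not overlap between groups, nor did Gbp2b, whose counts may be shared with its near copy Gbp2. The others were the interferon gamma-induced chemokine Cxcl9 (0.60 ± 0.18), the ISG15 ligase Herc6 (0.51 ± 0.10), the secreted glycoprotein gene Lgals3bp (0.44 ± 0.09) and Tor3a (0.28 ± 0.09). Of the 38 other interferon-induced genes listed, 23 had positive and 15 negative values in edgeR, with a median of 0.12. Among them Psme1 (0.005 ± 0.11), Psme2 (-0.08 ± 0.13) and Nlrc5 (0.07 ± 0.09) changed little.

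Herc6 was at 89.3, 78.8, 68.1, 64.3 and 74.2 CPM in the sgCon tumors and at 115, 115, 108, 95.1 and 101 CPM in the sgTaz tumors. The groups did not overlap in Herc6 or in Lgals3bp. The nuclear body gene Sp100 was the pathway gene that DESeq2 called lower, at -0.74 ± 0.20, with 108 to 245 CPM in sgCon and 80.5 to 112 CPM in sgTaz tumors. limma-voom called Ciita, the master regulator of MHC class II genes, higher (0.45 ± 0.16) and Ifi27 (-0.31 ± 0.14), Ifit3b (-0.60 ± 0.26) and Sp100 lower. Of the 12 listed genes that induce interferon, such as Mavs, Tbk1 and Tlr3, 0 were called by any of the 3 tools, and Ikbke (-0.63 ± 0.23) and Irf3 (-0.31 ± 0.10) had an unadjusted p below 0.05 in edgeR. Of the 10 kinases, STATs and brakes tested, 0 were called by edgeR, DESeq2 or limma-voom, and 0 had an unadjusted p below 0.05 in edgeR.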

How the data were processed

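RNA of 10 whole tumors, 5 sgCon and 5 sgTaz, was sequenced. The authors extracted RNA with Trizol, mapped reads to mm10 with STAR in 2-pass mode and counted them per gene with featureCounts of Subread on a GENCODE annotation. The deposited values are these raw counts of the authors. The sources used here do not give tool versions, whether counting used strand, or how the genes of the table were selected. A further 5 columns of the table were not used. Identifiers were named by GENCODE M21, in which 17860 of 17864 were found.

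Counts were fitted in R 4.3.3 with edgeR 4.0.16 (TMM, filterByExpr by group, glmQLFit and glmQLFTest) over 14816 genes, with Benjamini-Hochberg adjustment over all of them and a threshold of 0.05. DESeq2 1.42.0 and limma 3.58.1 were alternatives, beside other normalizations, filters, a replicate block, a GC and length offset, marker scores as covariates and each tumor left out in turn. Log2 CPM used a prior count of 2. In simulated counts for this comparison (14816 genes, 200 of them changed), edgeR recovered 85% with 8 false calls, DESeq2 89% with 42 and limma 85% with 11. Every planted change was larger than the edgeR log2 fold change of any member. These rates therefore do not give the power for changes as small as those of the members. At the depths above, precision is set by the spread between tumors more than by counting error. Counting error weighs more for Ifng, whose lowest count in any tumor was 22, than for the members. No labels say that the tumors came from separate mice, so p-values measure the spread between these samples. No pair of tumors of a group agreed within sampling noise, the smallest chi-square per gene being 6.49.

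The members, the lists of roles, pathway genes and cell markers, and the tests were chosen with earlier results of these data known. Described in full are, in each role, the member with the largest change and the one with the highest CPM per kilobase of exon, each member called by edgeR, DESeq2 or limma-voom, and each member without overlap between groups. Of the pathway lists, detected ligands and genes called by any tool or without overlap were named. Other genes were named after their values were seen. One gene of the pathway was left out of its list and is not reported here.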

Additional observations from a re-analysis of the deposited data

Results flagged for a closer look

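Dixon's criterion was applied to the highest and the lowest tumor in 108 groups of 5 tumors (each member and Ifng in each group). A tumor stood apart from the other 4 in 6 of the groups, where chance gives about 1 in 20 groups, or 5.4. In all 6 it was the highest tumor. The 6 were all type I members, 5 in sgTaz tumor 2 and 1 in sgCon tumor 1. In sgTaz tumor 2, Mx2 was at 12.98 CPM against 7.36 to 8.80 in the other sgTaz tumors, Oasl2 at 208.9 CPM against 109 to 131, Usp18 at 69.55 CPM against 27.6 to 38.5, Stat2 at 160.9 CPM against 103 to 114, and Zbp1 at 174.7 CPM against 110.3 to 128. In sgCon tumor 1, Dhx58 was at 43.48 CPM against 28.3 to 30.4 in the other sgCon tumors.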

How the results depend on the processing

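The median log2 fold change of the type II members was positive under every alternative run, from 0.266 (limma-voom) to 0.449 (GC and length offset, which moved the median of all genes from -0.019 to 0.04), and from 0.286 to 0.413 with each tumor left out. That of the type I members went from -0.191 to 0.131, and from -0.178 to 0.041 with each tumor left out. Of the 14 type II members 13 kept their sign in all 24 fits, Socs1 being the exception with 21, against 14 of the 35 type I members and 2 of the 4 receptor chains. Of the 12 members called by DESeq2 or limma-voom, 11 kept their sign in all 24 fits, and Oas3, called lower by limma-voom, was at 0.019 with the macrophage score as a covariate.

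DESeq2 called 8 members higher and 1 lower and 8 pathway genes. limma-voom called 6 and 4 members and 10 pathway genes, and 14 members were lower at its unadjusted p below 0.05. The 6 members lower at that p in edgeR became 3 with no filter, 2 with the GC and length offset, 2 with the lymph node stroma score, 1 with the macrophage score and 3 with the epithelial score, which also raised the 10 higher members to 17. Leaving out sgCon 1 and sgTaz 2 together, chosen after seeing the data like the epithelial score, gave 11 lower. Shares of all genes under these edgeR fits are not given, so the changes in count are not read as results about members. The causes were not tested.

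With each tumor left out, 8 to 16 members were higher and 1 to 14 lower at an unadjusted p below 0.05, and 0 to 1 members (Gbp7) and 0 to 1 pathway genes (Herc6) were called at the adjusted threshold, both without sgTaz tumor 5. The count higher was 16 without sgCon tumor 1. The count lower was 1 without sgCon tumor 1 or sgTaz tumor 4, 2 without sgTaz tumor 1, 3 without sgCon tumor 5, sgTaz tumor 3 or sgTaz tumor 5, and 14 without sgTaz tumor 2. Shares of all genes with a tumor left out are likewise not given.

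Both groups carry the replicate numbers 1 to 5, no label ties same-numbered tumors, and no pairing was used in the main fit. The correlations of same-numbered deviations were -0.15, -0.243, -0.049, 0.0932 and 0.221, and tumor 5 alone matched its own number best. Whether same-numbered tumors shared a batch was not tested. With the replicate block, 12 members were higher and 5 lower at an unadjusted p below 0.05, 0 were called, and the medians were 0.352 and -0.015. With the block and the GC and length offset together, 15 were higher and 3 lower. Shares of all genes are not given for these fits either.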

Other observations

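Markers of other cell types, none of them members, gave these values. The 8 B cell markers all had negative log2 fold changes, and their sum was 68.0 to 860.1 CPM in sgCon tumors and 7.56 to 183 CPM in sgTaz tumors. The 6 neutrophil markers were also all negative, with sums of 356 to 1139 CPM and 216 to 643 CPM. Of the 6 markers of plasmacytoid dendritic cells, a main source of type I interferon, 5 had negative log2 fold changes, among them Spib (-2.50) and Siglech (-0.13), and the median was -0.66. Their sum of 317 to 390.2 CPM in sgCon and 334 to 387 CPM in sgTaz tumors was mostly Tcf4 (216 to 361 CPM), a gene of many cell types and the 1 positive marker. The 7 adipocyte markers summed to 52.96 to 102 CPM in sgCon tumors and 36.5 to 197 CPM in sgTaz tumors. At an unadjusted p below 0.05 in edgeR, 8 B cell, 3 neutrophil and 1 plasmacytoid dendritic cell markers were lower. edgeR called no gene of any of these lists at an adjusted p below 0.05.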
